A study of Homo sapiens with 6 samples.

Results

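Cells make serine, the one-carbon units carried by folate, asparagine and proline with a small set of enzymes, and 10 genes of that set are described here after nitidine chloride in HEK-293T, an immortal line derived from human embryonic kidney. The genes were taken by symbol, 1 row each, from a deposited table of 50868 genes, and no symbol of the 10 was repeated in it. Treated cells received 10 µM nitidine chloride, a benzophenanthridine alkaloid from plants of the genus Zanthoxylum, for 12 h, and control cells received DMSO, a common solvent, for the same 12 h. The labels give the line as WT in both groups. mRNA was sequenced from 3 libraries per group, with 13273432 to 15620937 counts in the nitidine chloride libraries and 12688093 to 16357992 in the DMSO libraries. All libraries come from 1 cell line. No label says that libraries of a group came from separate cultures, so p-values measure the spread between these libraries, which may be technical.

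Serine is made from the glycolytic intermediate 3-phosphoglycerate by PHGDH, PSAT1 and PSPH in succession. In mitochondria SHMT2 splits serine into glycine and a one-carbon unit on tetrahydrofolate (THF). MTHFD2 oxidises that unit to formyl-THF, MTHFD1L releases it as formate for purine and thymidylate synthesis in the cytosol, and ALDH1L2 oxidises it to CO2. ASNS makes asparagine from aspartate and glutamine, ALDH18A1 makes the proline precursor from glutamate, and PYCR1 completes proline. Many of these genes are known targets of ATF4, the transcription factor of the integrated stress response, which pairs with C/EBP proteins on a composite DNA element. That element was first worked out in genes such as ASNS, whose promoter holds it beside a second short element that also answers to amino acid shortage.

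The ASNS promoter and a short stretch at MTHFD1L are shown because these were the members with that element in the RefSeq promoter windows, and their transcripts went opposite ways. Such windows hold 250 bases before and 50 from a transcription start on, and 6 of the 10 members had at least 1. PSPH, SHMT2, ALDH1L2 and PYCR1 had none. MTHFD2 is shown as a member that rose without a match. Sequences are from RefSeq on GRCh38.p14, read 5′ to 3′ on the strand of the gene, with motif matches in capitals. The first is the 250 bases before the most upstream ASNS start with a window (chr7:97872409-97872658, minus strand). The others are the 250 bases before the MTHFD2 start (chr2:74198365-74198614, plus strand) and 30 bases at MTHFD1L (chr6:150866346-150866375, plus strand).
ASNS: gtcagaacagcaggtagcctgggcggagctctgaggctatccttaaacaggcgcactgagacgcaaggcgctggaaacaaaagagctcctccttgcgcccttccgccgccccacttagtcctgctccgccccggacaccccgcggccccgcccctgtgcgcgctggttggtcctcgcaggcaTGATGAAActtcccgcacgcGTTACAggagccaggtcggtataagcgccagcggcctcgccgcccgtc
MTHFD2: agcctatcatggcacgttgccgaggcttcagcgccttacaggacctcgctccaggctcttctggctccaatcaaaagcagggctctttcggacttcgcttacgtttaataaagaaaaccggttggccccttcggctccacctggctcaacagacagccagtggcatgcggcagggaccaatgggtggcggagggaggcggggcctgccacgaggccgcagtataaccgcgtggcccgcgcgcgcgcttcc
MTHFD1L: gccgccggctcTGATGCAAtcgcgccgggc

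4 motifs were searched on both strands. They were TGATGNAA (the C/EBP-ATF composite element), GTTACA (the second ASNS element), TGACGTCA (the cyclic AMP response element) and CACGTG (the E-box). TGATGNAA was present in 3.62% of 35116 windows over all genes. By gene, 4.46% of 27305 genes had it in at least 1 window, and among the members ASNS and MTHFD1L did. In ASNS it lay 68 bases before the most upstream start with a window, on the coding strand, and outside the window of a start further downstream. MTHFD1L too has several annotated starts, and the match lay 129 and 90 bases before 2 of them and 24 bases after another. GTTACA was present in 6.66% of windows (8.07% of genes) and, among the members, in ASNS alone, 48 bases before that upstream start of ASNS. CACGTG, found in 7.26% of windows (8.77% of genes), was present in MTHFD1L and ALDH18A1. TGACGTCA, found in 1.85% of windows (2.25% of genes), was present in none of the 6. The matches did not overlap each other. PHGDH and PSAT1, like MTHFD2, had no match to any of the 4, which says only that those letters are not in these windows.

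Of the 10 genes, 8 rose after nitidine chloride and 2 fell. ASNS, PSPH and MTHFD2 rose by more than 2-fold, ALDH1L2, SHMT2, PYCR1, PSAT1 and PHGDH by 1.71-fold to 1.31-fold, MTHFD1L fell to 0.415 of its DMSO level, and ALDH18A1 was at 0.853 of it. The median log2 fold change of the 10 was 0.63, against 0.01 over all 15953 genes tested. These counts stand beside a broad response, since 51.7% of all tested genes passed the same threshold, an adjusted p below 0.05 by the quasi-likelihood test of edgeR, with 24.7% higher and 27.0% lower. For each of the 10 the treated and control libraries were fully separated, as for 60.7% of all tested genes. With library-size scaling in place of TMM scaling, which sets the libraries level on most genes, the median of all genes shifted to 0.12 and 57.9% of the genes that passed were higher, against 47.7%, and 8 members were still higher. In bulk RNA, fewer cells of a kind and less RNA per cell cannot be told apart.

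**Figure D1:**
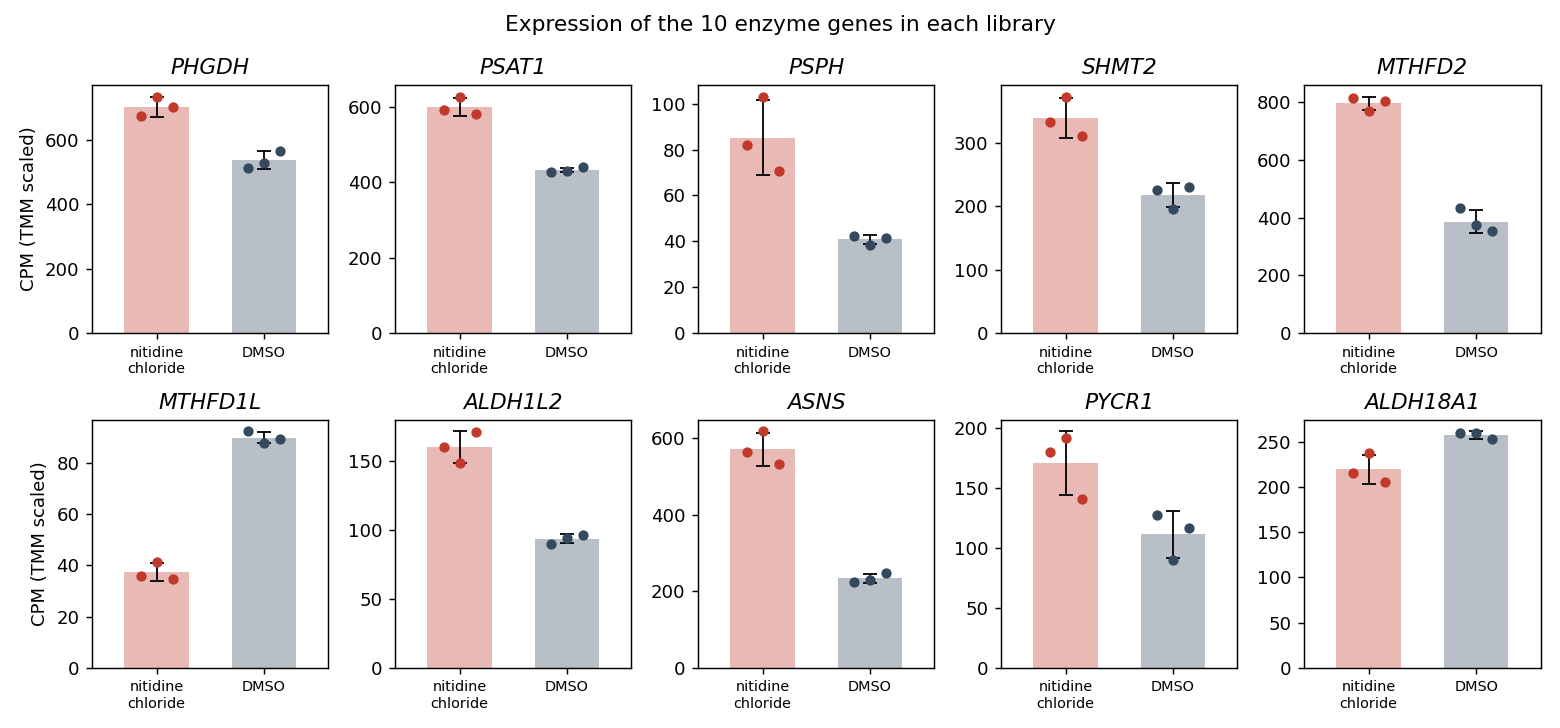
TMM-scaled counts per 1000000 (CPM, linear axis from 0) of each of the 10 enzyme genes in every library, with nitidine chloride left of DMSO. Points are libraries, bars are means and error bars are SD (n = 3). MTHFD1L and ALDH18A1 are the 2 genes whose nitidine chloride libraries lie below the DMSO libraries.

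Among the serine synthesis genes, PSPH, the phosphatase that releases free serine, moved most. It had 81.8, 103 and 70.8 CPM (TMM-scaled counts per 1000000, the unit of all levels unless per kb is stated) in the nitidine chloride libraries, against 42.5, 38.5 and 41.6 in the DMSO libraries. The groups were far apart, although the treated libraries ranged widely, with replicate 2 highest. Its log2 fold change was 1.06 ± 0.14 (SE), with an adjusted p of 4.20e-04 (edgeR quasi-likelihood, adjusted by Benjamini and Hochberg over all tested genes, as for every adjusted p that follows). PSAT1, the aminotransferase of the middle step, had 592, 626 and 579.6 CPM after nitidine chloride and 428, 428 and 439 in DMSO. Its DMSO libraries hardly differed, and the log2 fold change was 0.47 ± 0.05 (adjusted p = 2.57e-04). PHGDH, the first and committed enzyme, had 673, 734 and 701 CPM after nitidine chloride, against 514, 529.9 and 567 in DMSO. All treated libraries lay above all controls, with a log2 fold change of 0.39 ± 0.06 (adjusted p = 0.00143). PSPH, the least abundant of these genes per kb of transcript, thus had the highest fold change of the group.

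The ratio of PSPH to PHGDH CPM within a library was 0.122, 0.140 and 0.101 after nitidine chloride and 0.0827, 0.0727 and 0.0734 in DMSO. It was higher in each treated library than in each control, with a mean log2 difference of 0.65. An exact two-sided permutation test over the 6 libraries gave p = 0.1, the smallest that 3 libraries against 3 allow, here and in the other 7 ratios computed, and adjustment over the 8 left it at 0.1. Fold changes in these data differed by genomic span (the stretch of a gene, introns included), as set out below. Tested genes in the span class of PSPH had a median log2 fold change of 0.13. Those in the class of PHGDH had -0.21, or 0.13 by its RefSeq span. The part of span in this ratio was not tested. The 3 serine synthesis genes summed to 1387 ± 65.9 CPM after nitidine chloride and 1010 ± 33.8 CPM in DMSO (SD, n = 3 each).

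The mitochondrial folate enzymes split. MTHFD2, a dehydrogenase and cyclohydrolase that is abundant in embryos and tumours and low in most adult tissues, had 814, 770.4 and 804 CPM after nitidine chloride and 432, 375 and 353 in DMSO. The treated libraries were close together and the controls more spread, and the log2 fold change was 1.04 ± 0.08 (adjusted p = 3.28e-05). SHMT2, which feeds that step, had 333, 372 and 311 CPM after nitidine chloride, against 226, 195 and 231 in DMSO. No treated library came near a control, and the log2 fold change was 0.64 ± 0.09 (adjusted p = 8.16e-04). ALDH1L2, which oxidises formyl-THF and yields NADPH, had 160.3, 148 and 171 CPM after nitidine chloride and 89.8, 94.2 and 96.3 in DMSO. It too was separated, with a log2 fold change of 0.77 ± 0.07 (adjusted p = 7.27e-05).

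MTHFD1L, the synthetase that exports the one-carbon unit as formate, went the other way. It had 35.99, 41.3 and 34.5 CPM after nitidine chloride, against 92.2, 87.9 and 89.4 in DMSO. Each treated library was below each control by a wide margin, with raw counts of 480 to 653 against 1122 to 1408. The log2 fold change was -1.27 ± 0.08 (adjusted p = 1.25e-05). Within a library, MTHFD1L stood at 0.0442, 0.0535 and 0.0429 of the MTHFD2 CPM after nitidine chloride and at 0.214, 0.234 and 0.253 in DMSO. That shift, a mean log2 difference of -2.32, was the largest of the 8 ratios (exact permutation p = 0.1). MTHFD1L was lower and MTHFD2 higher in every treated library, so the ratio had to be separated and p could take no other value. The genes also differ in span, 236.3 kb for MTHFD1L and 19.0 kb for MTHFD2. Median log2 fold changes of their span classes were -2.00 and 0.30. The part of span in this shift was not tested.

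ASNS had the highest fold change of the 10. Its libraries held 562, 617 and 533 CPM after nitidine chloride and 224, 230.2 and 247 in DMSO. Each treated library lay above each control, and the log2 fold change was 1.29 ± 0.07 (adjusted p = 6.90e-06). The promoter of this gene is the one shown above with both elements, and whether they bear on its rise was not tested.

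The proline genes differed from each other. PYCR1, the mitochondrial reductase of the last step, had 179.7, 191 and 141 CPM after nitidine chloride, against 127, 89.7 and 117 in DMSO. The groups were separated by the narrow gap between nitidine chloride replicate 3 and DMSO replicate 1, and the log2 fold change was 0.62 ± 0.15 (adjusted p = 0.0115). ALDH18A1, the bifunctional enzyme of the first steps, had 215, 238 and 206 CPM after nitidine chloride and 260.0, 260.0 and 253 in DMSO. Treated libraries were all lower, with a log2 fold change of -0.23 ± 0.07 (adjusted p = 0.0237). That call was lost without any 1 library other than nitidine chloride replicate 2 (adjusted p between 0.0549 and 0.0708) and with library-size scaling (adjusted p = 0.107). The PYCR1 to ALDH18A1 ratio was 0.834, 0.804 and 0.685 after nitidine chloride, against 0.490, 0.345 and 0.461 in DMSO (exact permutation p = 0.1). PYCR1 was higher and ALDH18A1 lower in every treated library, so the ratio had to be separated and p could take no other value. Median log2 fold changes of their span classes were 0.30 for PYCR1 and -0.21 for ALDH18A1. As a pair the proline genes summed to 390.3 ± 41.4 CPM after nitidine chloride and 369 ± 18.9 CPM in DMSO, a difference within the spread of the treated libraries.

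Levels of different genes were compared per kb of merged GENCODE 29 exons, as CPM per kb. PSAT1 was the most abundant in both groups, with 274 ± 10.97 after nitidine chloride and 197 ± 2.91 in DMSO (SD, n = 3 each). After nitidine chloride MTHFD2 (163 ± 4.69), ASNS (128 ± 9.60), PHGDH (76.3 ± 3.33), SHMT2 (70.0 ± 6.42), PYCR1 (59.1 ± 9.14), ALDH18A1 (58.3 ± 4.38), PSPH (30.9 ± 5.94), ALDH1L2 (18.8 ± 1.33) and MTHFD1L (7.42 ± 0.70) followed. From PHGDH to ALDH18A1, neighbours in that order had overlapping libraries. In DMSO the order after PSAT1 was MTHFD2, ALDH18A1, PHGDH, ASNS, SHMT2, PYCR1, MTHFD1L, PSPH and ALDH1L2, and only SHMT2 and PYCR1 overlapped as neighbours. ASNS thus stood in place 3 after nitidine chloride, against place 5 in DMSO, and ALDH18A1 in place 7, against place 3. MTHFD1L was last after nitidine chloride and above PSPH and ALDH1L2 in DMSO. The order depends on the length used. In the deposited FPKM values SHMT2 was divided by 17.95 kb, more than its span of 5.61 kb and its 4.84 kb of merged exons, and PHGDH stood second.

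Across most of the 10 genes the treated libraries kept much the same order. Nitidine chloride replicate 2 held the highest treated value for 8 of the 10 genes, MTHFD1L and ALDH18A1 among them, and replicate 3 the lowest for 7. MTHFD2 and ALDH1L2 were the exceptions, with replicate 2 their lowest. In DMSO, replicates 1 and 3 each held the highest value for 5 of the 10 genes. How often each library was highest or lowest over all tested genes was not counted. The coefficient of variation of the members had a median of 7.50% in the nitidine chloride libraries and 5.09% in the DMSO libraries. Over the 4045 tested genes at least as abundant as the lowest member it was 7.23% and 4.09%, in the same order.

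Fold changes across the whole data set differed by genomic span, which is the stretch, introns included, between the gene ends listed in the deposited table. The table's positions equal those of GENCODE 29 on GRCh38 for 9 of the 10 genes, all but PHGDH. Tested genes of 200 kb or more had a median log2 fold change of -2.00, those of 50 to 100 kb -0.21, those of 20 to 50 kb 0.13 and those of 10 to 20 kb 0.30. The class of 5 to 10 kb had 0.31 and that under 5 kb 0.09, so the median was not highest in the shortest genes. Genes of 100 to 200 kb had -0.84. MTHFD1L (ENSG00000120254) (chromosome 6, 150865549 to 151101887) covers 236.3 kb, by far the longest of the 10. Its log2 fold change of -1.27 was above the upper quartile of its class, -1.33, and 76.1% of the 1047 genes in the class were lower. Among 605 genes within a factor of 0.8 of its span in either direction, a set chosen after the values were seen, the median was -1.63 and 67.6% were lower than MTHFD1L. ALDH18A1 (ENSG00000059573, chromosome 10, 95605929 to 95656706, 50.8 kb), at -0.23, was at the median of its class, but its span is at the short end of that class. Among 1851 genes within the same factor of its span the median was -0.05, and 31.0% were lower than ALDH18A1.

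The genes that rose were all above the median of their span class. ASNS (ENSG00000070669, chromosome 7, 97852118 to 97872542, 20.4 kb) exceeded it by 1.15 on the log2 scale and was higher than 97.7% of its class. ALDH1L2 (ENSG00000136010, chromosome 12, 105019784 to 105084577, 64.8 kb) rose within a class whose upper quartile was 0.10, and 96.6% of that class were lower. PSPH (ENSG00000146733, chromosome 7, 56011051 to 56051604, 40.6 kb) was higher than 96.2% of its class and MTHFD2 (ENSG00000065911, chromosome 2, 74198562 to 74217565, 19.0 kb) than 94.6%. For SHMT2 (ENSG00000182199, chromosome 12, 57229327 to 57234935, 5.61 kb), PSAT1 (ENSG00000135069, chromosome 9, 78297143 to 78330093, 33.0 kb) and PYCR1 (ENSG00000183010, chromosome 17, 81932384 to 81942412, 10.0 kb) the share was 77.2% to 78.3%. PHGDH (ENSG00000092621, chromosome 1, 119659798 to 119744215) spans 84.4 kb in the table and was higher than 89.5% of that class, but its RefSeq record spans 32.3 kb, whose class had a median of 0.13. The ASNS record in RefSeq is longer than in the table, with 76.8 kb, and that of PYCR1 shorter, with 4.91 kb.

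**Figure D2:**
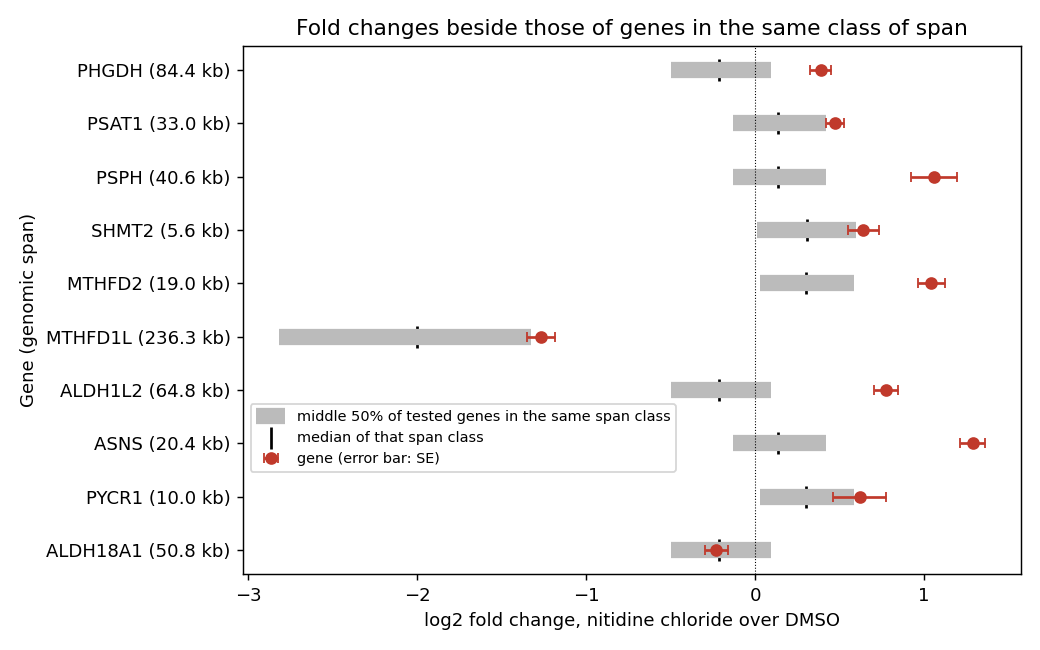
Log2 fold change of each enzyme gene, nitidine chloride over DMSO (points, error bars are SE), beside the tested genes of the same class of genomic span (grey bar for the middle 50%, black mark for the median). MTHFD1L at -1.27 lies above its class median of -2.00, ALDH18A1 at -0.23 lies on its class median, and ASNS at 1.29 lies farthest to the right.

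Several of the 10 have close relatives, most of them in another compartment. SHMT1, the cytosolic serine hydroxymethyltransferase, had 74.1, 79.5 and 79.4 CPM after nitidine chloride, against 87.9, 91.2 and 84.7 in DMSO. Its log2 fold change was -0.18 ± 0.06 (adjusted p = 0.0453), a call that ended in 10 of 13 alternatives, among them without any 1 library other than nitidine chloride replicate 2 (adjusted p between 0.0693 and 0.144). MTHFD1, the cytosolic enzyme with 3 activities, had 338, 366 and 356 CPM after nitidine chloride and 543, 529.7 and 543 in DMSO. It fell with a log2 fold change of -0.61 ± 0.06 (adjusted p = 6.88e-05), below its span class median of -0.21. MTHFD2L, the other mitochondrial dehydrogenase, was scarce, with 12.9, 10.3 and 10.4 CPM after nitidine chloride and 15.5, 16.0 and 14.2 in DMSO. Its log2 fold change was -0.44 ± 0.12 (adjusted p = 0.0179), lost without nitidine chloride replicate 2 or 3 or DMSO replicate 2 (adjusted p between 0.0509 and 0.0607). The call was also lost with library-size scaling (adjusted p = 0.0541) and with limma on log2 FPKM (adjusted p = 0.0770). MTHFD2L spans 188.9 kb, and 74.9% of its span class, with a median of -0.84, were lower. Among genes within a factor of 0.8 of its span the median was -1.27 and 83.8% were lower. ALDH1L1, the cytosolic relative of ALDH1L2, had 0 to 2 counts per nitidine chloride library and 0 to 4 per DMSO library and was not tested.

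Set as ratios within libraries, SHMT2 stood at 4.50, 4.69 and 3.92 times SHMT1 after nitidine chloride and at 2.57, 2.14 and 2.73 times in DMSO. MTHFD2 stood at 63.3, 74.8 and 77.1 times MTHFD2L, against 27.9, 23.4 and 24.8 times. MTHFD1L to MTHFD1 was 0.106, 0.113 and 0.0970 after nitidine chloride and 0.170, 0.166 and 0.164 in DMSO. None of these ratios overlapped between the groups (exact permutation p = 0.1 each). For SHMT2 to SHMT1 and for MTHFD2 to MTHFD2L that had to follow. In each of those pairs the first gene was higher and the second lower in every treated library, so p could take no other value. They are CPM ratios, so they carry the difference in transcript length, which is the same in every library. The paired genes also differ in span class. For SHMT2 and SHMT1 the class medians of log2 fold change were 0.31 and 0.13. For MTHFD2 and MTHFD2L they were 0.30 and -0.84, and for MTHFD1L and MTHFD1 they were -2.00 and -0.21. The part of span in these ratios was not tested.

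Of the relatives of PYCR1, PYCR3, the cytosolic reductase, had 42.1, 33.3 and 28.3 CPM after nitidine chloride and 47.3, 46.0 and 47.0 in DMSO. Its log2 fold change was -0.44 ± 0.14 (adjusted p = 0.0315), lost without any 1 library other than nitidine chloride replicate 1 (adjusted p between 0.0654 and 0.0881). The PYCR3 call was also lost with library-size scaling (adjusted p = 0.0811) and with limma on log2 FPKM (adjusted p = 0.0762).

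**Figure D3:**
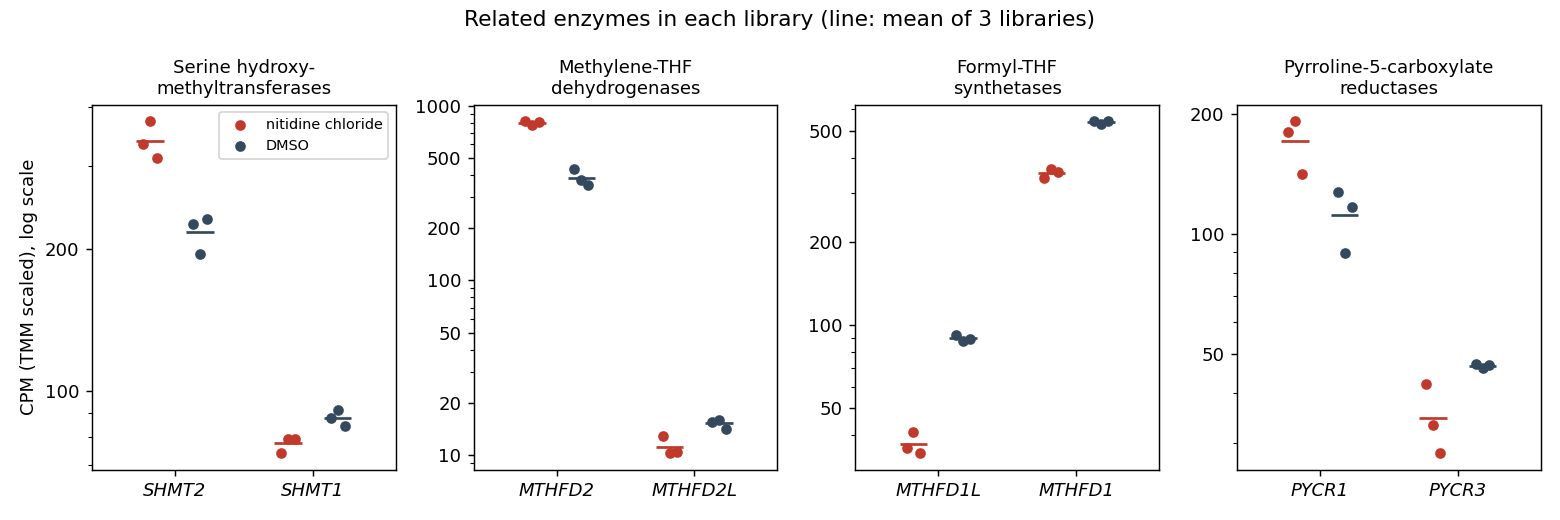
CPM (TMM scaled, log axis) of the enzyme genes and their relatives in each library, with nitidine chloride left of DMSO for each gene. Points are libraries and lines are means of 3. SHMT2, MTHFD2 and PYCR1 were higher after nitidine chloride, while the libraries of SHMT1, MTHFD2L, MTHFD1L, MTHFD1 and PYCR3 were lower.

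Neighbouring pathways were read from lists of genes outside the 10. Over all tested genes 51.7% passed the threshold, 24.7% higher and 27.0% lower, and the counts of each list stand beside these shares. In the lists 27.3% to 61.5% of tested genes passed, apart from 85.7% for ATF4 and its partner factors. No list was tested as a set. In the rest of the folate cycle and the glycine cleavage system, 2 of 18 tested genes were higher, 8 were lower and 8 missed the threshold, with a median log2 fold change of -0.01, against 0.01 over all genes. With library-size scaling the split was 4 higher and 4 lower. FPGS, which adds the glutamate tail that keeps folate in the cell, rose with 0.28 ± 0.08. That was near the median of its span class, 0.30, and 47.6% of the class were lower. The FPGS call was lost without DMSO replicate 1 (adjusted p = 0.0671). GLDC, the glycine decarboxylase (113.2 kb), fell with -1.01 ± 0.14 and MTR, methionine synthase (108.7 kb), with -0.96 ± 0.07, where the class of 100 to 200 kb had a median of -0.84. Among genes within a factor of 0.8 of their spans in either direction, the medians were -0.67 for GLDC and -0.61 for MTR. Of these genes 22.4% were lower than GLDC and 22.1% were lower than MTR. TYMS, thymidylate synthase, had a log2 fold change of -0.04 ± 0.09 and did not pass.

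In purine synthesis, the main user of formyl-THF, 1 of 11 genes was higher, 2 were lower and 8 missed the threshold, with a median of -0.07. GART and ATIC, whose products consume formyl-THF, had log2 fold changes of 0.14 ± 0.09 and -0.07 ± 0.07. The genes that passed encode enzymes of other steps. IMPDH2, the first enzyme of guanine nucleotide synthesis, rose with 1.01 ± 0.06 to 651 ± 39.3 CPM after nitidine chloride, against 322 ± 5.11 in DMSO. GMPS, the next step of that branch (73.5 kb), fell with -0.96 ± 0.06 to 137 ± 4.26 CPM, against 267 ± 9.68 in DMSO. ADSL fell with -0.30 ± 0.06.

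Genes that use serine and glycine had 2 of 13 higher, 6 lower and 5 not passing, with a median of -0.22, and 3 higher and 4 lower with library-size scaling. CTH, which makes cysteine from cystathionine and is itself a known target of ATF4, had a higher fold change than any of the 10 enzyme genes. It had 164, 169 and 159.6 CPM after nitidine chloride, against 54.1, 51.3 and 47.7 in DMSO, a log2 fold change of 1.68 ± 0.07 (adjusted p = 1.41e-06). CBS, which joins serine to homocysteine in the step before, rose with 0.50 ± 0.09. SPTLC2, a subunit of the enzyme that puts serine into sphingolipids (110.8 kb), fell with -0.92 ± 0.08, and SFXN1, a mitochondrial serine carrier (52.7 kb), with -0.48 ± 0.05.

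Around the branch to serine, glycolysis had 1 of 7 genes higher, 2 lower and 4 not passing, with a median of 0.01, and 2 higher and 1 lower with library-size scaling. GAPDH rose with 0.33 ± 0.06, PGK1, whose product 3-phosphoglycerate is the substrate of PHGDH, fell with -0.33 ± 0.08, and ENO1 fell with -0.29 ± 0.08. The ENO1 call was lost without DMSO replicate 1 (adjusted p = 0.0545). It was also lost with library-size scaling (adjusted p = 0.0545) and with limma on log2 FPKM (adjusted p = 0.0805). PGAM1, which draws 3-phosphoglycerate on into glycolysis, had -0.04 ± 0.07.

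In glutamate, aspartate and proline metabolism beyond the members, 2 of 14 genes were higher, 3 lower and 9 did not pass, with a median of 0.09, and 4 higher and 2 lower with library-size scaling. GLUL, glutamine synthetase, rose with 0.34 ± 0.08, near its span class median of 0.30, and 53.1% of that class were lower. P4HA1, a prolyl hydroxylase subunit (89.8 kb), fell with -0.48 ± 0.13, a call lost without DMSO replicate 3 (adjusted p = 0.0536, and 3 genes of the list past the threshold). Of the methionine cycle and polyamine genes, 2 of 9 were higher, 3 were lower and 4 missed the threshold, with a median of 0.01. ODC1 and SRM, which make putrescine and spermidine, rose with 0.79 ± 0.07 and 0.51 ± 0.10, while AMD1 and SMS fell with -0.50 ± 0.06 and -0.60 ± 0.10.

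ATF4 and the factors that pair with it or act downstream of it had 6 of 7 genes higher, 0 lower and 1 not passing, with a median of 0.97. The list was drawn up with earlier results on ATF4 targets in these libraries known, so its direction is not independent evidence. ATF4 mRNA had 1001, 1072 and 1002 CPM after nitidine chloride, against 793, 767 and 797 in DMSO. Its log2 fold change of 0.38 ± 0.05 (adjusted p = 7.15e-04) exceeded only that of ATF3, which had 0.11 ± 0.27 and did not pass, while DDIT3, which encodes CHOP, rose with 1.52 ± 0.26 and TRIB3, a pseudokinase, with 1.46 ± 0.10. ATF4 protein was not measured.

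**Figure D4:**
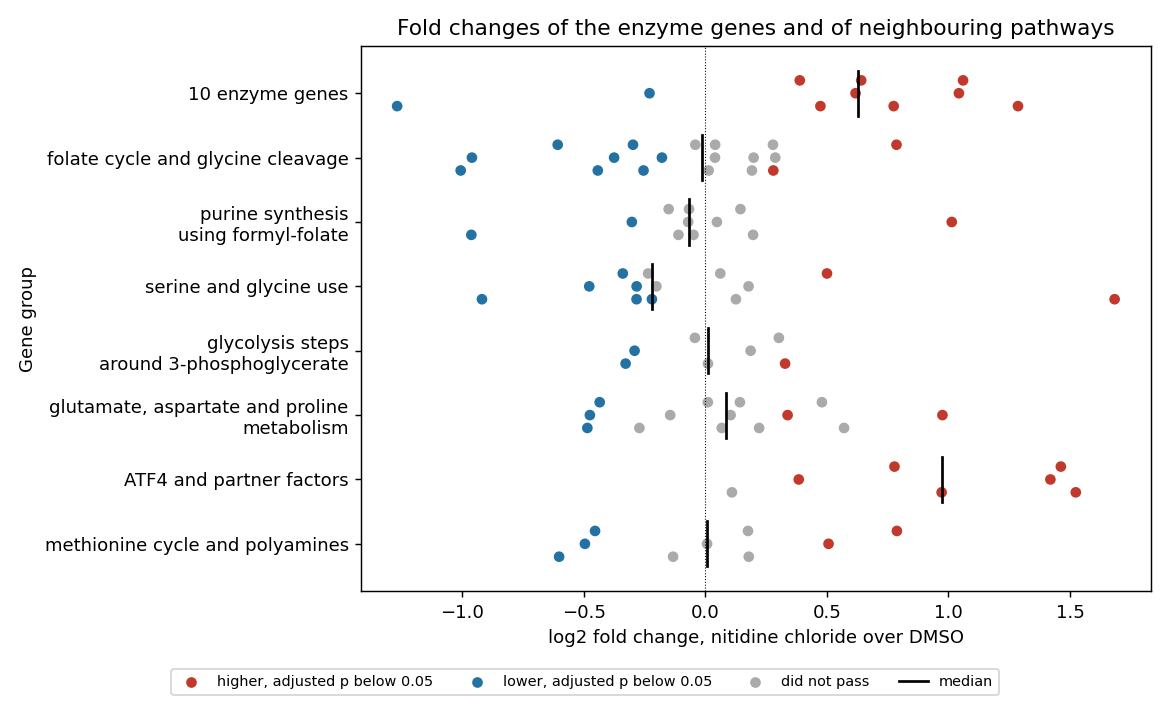
Log2 fold changes, nitidine chloride over DMSO, of the 10 enzyme genes and of tested genes in 7 neighbouring groups, 1 point per gene, coloured by direction and by whether the adjusted p was below 0.05, with the median as a black line. The medians were 0.63 for the 10 enzyme genes, 0.97 for ATF4 and its partner factors, and between -0.22 and 0.09 for the other 6 groups.

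Copies and overlapping genes were counted to see how many reads could be shared. The table held 16 pseudogene rows named after PSAT1, PSPH, MTHFD2 or ASNS, none with more than 45 counts in a library, and their sum stayed at or below 0.584% of the parent gene. Genes overlapping a member were counted at up to 1.503% of SHMT2, 0.594% of MTHFD2 and 0.109% of PYCR1. C12orf45, on the opposite strand, reached 12.2% of the ALDH1L2 count and AL133260.1, inside MTHFD1L on the same strand, 8.93% of the MTHFD1L count. Whether the authors' counting used strand is not given in the sources used here, so reads of ALDH1L2 and C12orf45 cannot be told apart with certainty, and AL133260.1 shares the strand of MTHFD1L whatever that setting was.

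Of 8 markers listed for HEK-293T cells, 6 were detected, with SIX2 at 62.2 to 81.1 CPM by library total after nitidine chloride and 41.5 to 44.1 in DMSO, while the neurofilament-family genes NEFH and INA had at most 1 count in a library. Markers of leukocytes, hepatocytes, endothelium and red cells summed to at most 3.07 CPM per list in any library, with CD3E, TTR, HBB and HBA2 at 0. The 4 fibroblast markers summed to 55.2 to 61.0 CPM in nitidine chloride libraries and 30.3 to 34.95 CPM in DMSO libraries. Nearly all of that was COL1A1, while COL1A2, its partner chain, had at most 5 counts. The part of these markers in the results was not tested.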

How the data were processed

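mRNA libraries of HEK-293T cells were analysed, 3 per group by the labels' titles. The authors deposited raw counts per gene and FPKM per gene, per the file headers. The submitters' processing notes list HISAT2 2.0.4 and StringTie 1.3.0, without roles. Not given in the sources used here are the genome build, the gene models, the counting tool and whether it used strand. Counts were analysed as deposited with edgeR 4.0.16 in R 4.3.3, with TMM scaling and the quasi-likelihood test, over 15953 genes with a mean count of at least 10. p-values were adjusted by Benjamini-Hochberg over all of them, with 0.05 as the threshold. SE is the fold change divided by the root of its F value. Library totals of 12688093 to 16357992 set the precision. Exon lengths came from GENCODE 29 and promoters from RefSeq on GRCh38.p14. The members and lists were chosen with earlier results of these data known. The members and their close relatives are named, and of each list up to 2 genes past the threshold with the highest and 2 with the lowest fold changes, others being chosen after their values were seen. Some genes that meet this rule are not reported here. The procedure was tested on simulated data in which few genes changed, in random directions. That test does not cover a response as broad as the one here. Alternatives were DESeq2 1.42.0, limma 3.58.1 on log2 FPKM, other scaling, filters and thresholds, a replicate block and each library left out.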

Additional observations from a re-analysis of the deposited data

How the results depend on the processing

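All 10 enzyme genes kept their direction under the 13 alternatives. ALDH18A1 ranged from -0.29 to -0.18 on the log2 scale with 1 library left out, and did not pass with library-size scaling (-0.13, adjusted p = 0.107) or on log2 FPKM (-0.13, adjusted p = 0.0872). By edgeR's test against a 1.5-fold change, 2833 of 15953 tested genes passed, 750 higher and 2083 lower. Of the 10 members 5 passed (4 higher), as did 2 folate, 2 serine and glycine use, 0 glycolysis, 1 glutamate and 1 methionine genes. At a threshold of 0.01, 5993 of 15953 tested genes passed, 2616 higher and 3377 lower. Of the members 7 were higher and 1 lower (PYCR1 and ALDH18A1 did not pass), and 6 folate, 1 glycolysis and 3 glutamate genes passed. The glutamate list held 3 to 6 calls with 1 library left out. The cause of these changes was not tested. Same-numbered libraries did not deviate together (correlations of 0.00, -0.05 and 0.04), and with a replicate block 7555 genes passed, with 8 members higher and 2 lower. Genes under a mean count of 10, such as ALDH1L1, were left out by the filter, and without it 28614 genes were tested.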
